A study of Mus musculus with 83 samples.

Results

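The genes described here are 6 metal-handling genes, Mt1, Mt2, Mtf1, Fth1, Ftl1 and Tfrc, chosen by name among the 23845 genes of a table of mRNA levels in single mouse embryos. All 6 have a row in that table, and all 6 were above 0 in each of the 77 embryos. Groups were made of embryos from sperm of heat-exposed males and of sham control males at 2 stages. There were 21 heat and 22 control morulae, and 18 heat and 16 control embryos of 4 cells. Adult males aged 8 to 12 weeks spent 7 days in an intensive care unit with a daily cycle of 8 h at 35 °C and 16 h at 25 °C, or were kept in the same unit at a constant 21 °C. The strain is not given in the labels, nor is the father, the mother or the litter of an embryo. Embryos may therefore share parents, and p-values measure the spread between embryos.

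Metallothioneins are small cysteine-rich proteins that bind zinc and copper and also cadmium. Their genes are switched on by MTF1, a zinc-finger factor that senses zinc and binds metal response elements near the start of its target genes. Ferritin is the shell in which cells store iron. Its heavy chain, made from Fth1, oxidizes iron, and its light chain, made from Ftl1, helps to form the mineral core. Tfrc encodes the transferrin receptor, through which most cells take up iron. In many mammalian cells iron regulatory proteins act on these mRNAs, blocking the translation of ferritin and stabilizing the receptor mRNA when iron is scarce.

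Mt1 and Mt2 lie side by side on chromosome 8, Mt2 at chr8:94172618-94173567 and Mt1 at chr8:94178883-94180327, both in RefSeq's GRCm38.p6, the assembly of mm10. The other members lie apart, Mtf1 at chr4:124802549-124849800, Ftl1 at chr7:45457944-45459886, Tfrc at chr16:32608896-32632794 and Fth1 at chr19:9980600-9985111. For both metallothionein genes 250 bases before a transcript start are shown, because their levels moved together, as described further on. They are from RefSeq's promoter table, on the plus strand, for Mt2 at chr8:94172368-94172617 and for Mt1 at chr8:94178839-94179088. The transcript starts used are 6471 bases apart. For Mt2 that start is the first base of the gene, while for Mt1 it lies 206 bases inside the gene's span, so the Mt1 window overlaps the annotated gene. Capitals mark the metal response element core, searched as TGCACNC and TGCGCNC on both strands.
Mt2: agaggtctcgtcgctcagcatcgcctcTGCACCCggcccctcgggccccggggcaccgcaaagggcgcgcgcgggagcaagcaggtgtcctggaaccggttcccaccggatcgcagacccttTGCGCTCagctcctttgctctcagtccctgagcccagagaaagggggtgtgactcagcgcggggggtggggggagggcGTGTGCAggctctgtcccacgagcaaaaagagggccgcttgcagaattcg
Mt1: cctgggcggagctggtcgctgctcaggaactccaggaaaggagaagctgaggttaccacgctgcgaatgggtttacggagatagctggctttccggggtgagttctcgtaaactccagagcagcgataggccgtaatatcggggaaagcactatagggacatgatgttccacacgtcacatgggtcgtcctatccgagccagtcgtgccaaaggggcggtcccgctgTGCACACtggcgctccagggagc
Counting also the 50 bases after the start, the Mt2 window held 4 such matches, of which 3 lie before the start. The Mt1 window held 3, of which 1 lies before the start, at -23 to -17, and 2 lie after it. Before and after refer only to the start used, and another start of Mt1 would split these matches differently. Which start the embryos use was not tested, and bases beyond the 50 after the start were not searched. Of 32851 windows of 300 bases, 25.7% held at least 1 match and 0.517% at least 4. The windows of Mtf1, Fth1 and Ftl1 held 0 matches, and 1 of the windows of Tfrc held 2 that overlap each other. A match is a stretch of letters and no evidence of binding.

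Levels are in TPM (transcript shares scaled to the same sum in every embryo), a unit already scaled for transcript length, so levels of different genes can be set side by side. TPM keeps no read depth, so the number of reads behind a value is unknown. The number of genes above 0 was 9026 to 12506 in heat morulae, 6480 to 12239 in control morulae, 6961 to 10274 in heat 4-cell embryos and 6303 to 10048 in control 4-cell embryos. The labelled stages were checked against 8 markers of the morula and trophectoderm, such as Krt8, Krt18 and Cdx2, and 7 of the oocyte and early cleavage, such as Zp3 and Gdf9. The summed morula markers had medians of 1546 and 1486 TPM in heat and control morulae, against 87.3 and 80.9 TPM in heat and control 4-cell embryos. The summed oocyte markers had medians of 19.8 and 19.2 TPM in heat and control morulae, against 554 and 444 TPM in heat and control 4-cell embryos. In 7 embryos a sum fell in the range of the other stage, and control morula 20 did so on both lists, with 195 TPM of morula markers and 202 TPM of oocyte markers. The stage comparisons below are given with all embryos, and without these 7 the same numbers of members passed.

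The metallothioneins were among the most abundant mRNAs of these embryos. Mt1 had 2720, 13550 and 21245 TPM (lowest, median and highest) in heat morulae and 4284, 14561 and 24587 TPM in control morulae. It had 4784, 9270 and 12729 TPM in heat 4-cell embryos and 6633, 8955 and 15004 TPM in control 4-cell embryos. By its median level Mt1 ranked 1st of all genes in heat morulae and 2nd in control morulae, against 4th in heat and 8th in control 4-cell embryos. In the order of its medians both morula groups stood above both 4-cell groups, and the neighbours within a stage overlapped over most of their range.

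Mt2 was the lower of the pair in all 4 groups. It had 2331, 8168 and 13639 TPM in heat morulae and 2225, 7902 and 16808 TPM in control morulae. It had 2187, 4738 and 7792 TPM in heat 4-cell embryos and 2593, 4837 and 8825 TPM in control 4-cell embryos. The ratio of Mt1 to Mt2 within an embryo had a median of 1.69 in heat and 1.82 in control morulae, and of 1.86 in heat and 1.80 in control 4-cell embryos. Together both genes made up a median of 2.21% of all TPM in heat morulae and 2.29% in control morulae, against 1.41% in heat and 1.39% in control 4-cell embryos.

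Mtf1, the factor that acts on the metallothionein genes, was the lowest of the members. It had 1.34, 2.49 and 7.19 TPM in heat morulae and 1.57, 2.86 and 6.58 TPM in control morulae. It had 2.32, 5.99 and 23.3 TPM in heat 4-cell embryos and 0.59, 6.39 and 17.1 TPM in control 4-cell embryos. The 4-cell medians stood above the morula medians, with partial overlap between the stages. Of the heat morulae 8 of 21 lay below every heat 4-cell embryo, and 5 of 18 heat 4-cell embryos lay above every heat morula. Of the 16 control 4-cell embryos 7 lay above every control morula and 2 below every control morula.

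Of the ferritin chains, Fth1 had 438, 1089 and 1390 TPM in heat morulae and 546, 1073 and 2057 TPM in control morulae. It had 229, 402 and 1357 TPM in heat 4-cell embryos and 309, 422 and 824 TPM in control 4-cell embryos. All 21 heat morulae and all 22 control morulae lay above the median of the 4-cell embryos of the same paternal group. One limit applies to every Fth1 value. The file's Fth1 row cites only a non-coding RefSeq transcript of the gene, and the coding transcript is cited on no row, so it is unknown how reads of the coding mRNA were counted.

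Ftl1, the light chain, had 1469, 10657 and 17005 TPM in heat morulae and 5461, 9770 and 30775 TPM in control morulae. It had 232, 3033 and 11696 TPM in heat 4-cell embryos and 844, 2949 and 9948 TPM in control 4-cell embryos. The highest heat 4-cell embryo thus had 50.4 times the level of the lowest, against 5.92 times for Fth1 and 2.66 times for Mt1 in the same embryos. Ftl1 ranked 4th and 6th of all genes by its median in heat and control morulae, against 60th in both 4-cell groups. The mouse genome holds processed copies of Ftl1 (Ftl1-ps1, Ftl1-ps2 and Ftl2-ps) that have no row, so reads shared with them may be counted with Ftl1.

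Tfrc had 4.20, 11.4 and 62.0 TPM in heat morulae and 1.13, 14.7 and 40.2 TPM in control morulae. It had 22.2, 36.8 and 138 TPM in heat 4-cell embryos and 18.5, 38.9 and 67.5 TPM in control 4-cell embryos. Of the heat morulae, 18 of 21 lay below every heat 4-cell embryo, and 15 of 22 control morulae lay below every control 4-cell embryo. The highest heat morula, number 6, stood at 62.0 TPM while the next had 24.5 TPM.

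**Figure D1:**
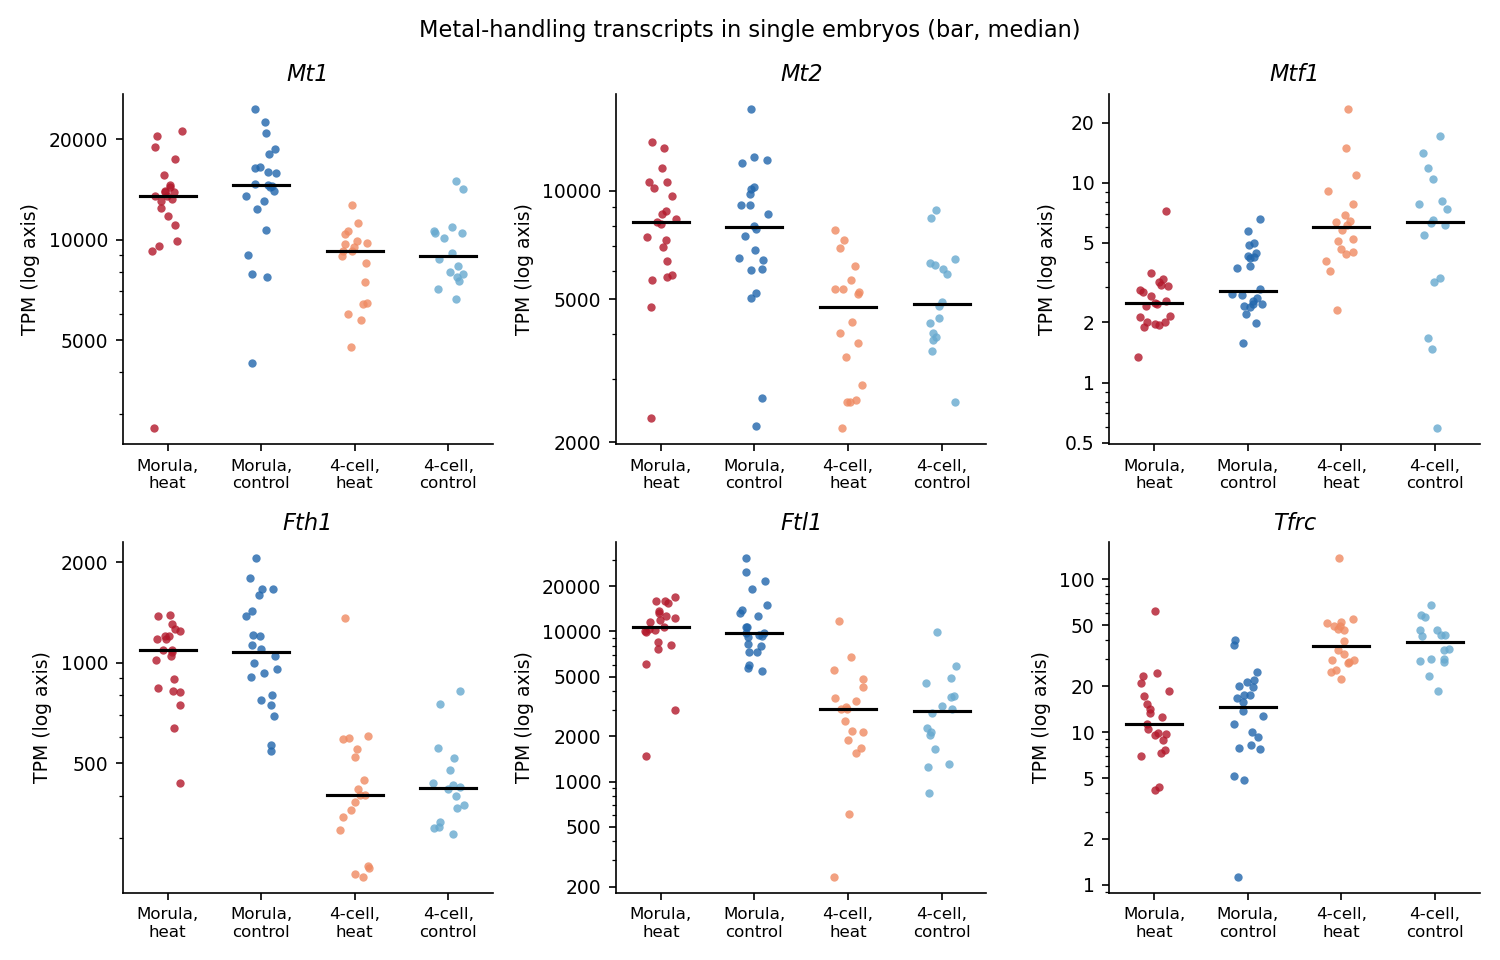
TPM of each member (vertical log axis) in every embryo, 1 point an embryo, with the group median as a bar; groups are 21 heat morulae, 22 control morulae, 18 heat 4-cell and 16 control 4-cell embryos. Fth1 and Ftl1 sit higher in morulae and Tfrc and Mtf1 lower, while heat and control groups of a stage overlap in all 6 panels.

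The first question was how these transcripts differ between the stages. Differences were tested with limma on log2(TPM + 1) over all genes that reached 1 TPM in 50% or more of the embryos in either group. A gene was called at a Benjamini-Hochberg adjusted p under 0.05 and at least a 2-fold difference. Such fold changes understate the change of low genes, here Mtf1 above all. TPM gives shares of the mRNA, so a change of a gene's amount and a change of the total mRNA of an embryo cannot be told apart.

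In control morulae against control 4-cell embryos, 3 of the 6 members were called, Ftl1 and Fth1 higher and Tfrc lower. Of all 8148 genes tested, 32.0% were called, 20.6% higher and 11.4% lower, so stage calls were common in the whole table. Of these calls 64.3% were higher ones, against 73.4% after median-of-ratios scaling and 24.9% in a fit that also holds the number of detected genes, where the median log2 fold change of all genes was -0.45. Without the fold limit 6 of the 6 members passed, against 46.1% of all genes. Ftl1 rose by a log2 fold change of 1.98 (SE 0.24, adjusted p 8.38e-09). Its median was 3.31 times as high in control morulae as in control 4-cell embryos. Fth1 rose by 1.30 (SE 0.16, adjusted p 1.16e-08) and Tfrc fell by 1.47 (SE 0.27, adjusted p 2.60e-05), both on the log2 scale.

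The other 3 members stayed under the 2-fold limit in control embryos. Mt1 differed by a log2 fold change of 0.55 (95% CI 0.24 to 0.86, adjusted p 0.0028) and Mt2 by 0.57 (95% CI 0.19 to 0.95, adjusted p 0.0113). Both were above the 4-cell median in nearly every control morula, 19 of 22 for Mt1 and 20 of 22 for Mt2. Mtf1 differed by -0.62 (95% CI -1.14 to -0.11, adjusted p 0.0426), and 21 of 22 control morulae lay below its 4-cell median. Without control 4-cell embryo 6 the difference of Mtf1 was -0.53 (adjusted p 0.0832). It was -0.44 (adjusted p 0.201) after median-of-ratios scaling, -0.22 (adjusted p 0.560) with the detected gene number in the fit and -0.70 (adjusted p 0.0706) with the replicate number as a block. Under each of these settings Mtf1 missed the threshold, while Mt1 differed by 0.98 (adjusted p 1.90e-06) with the detected gene number in the fit.

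In heat morulae against heat 4-cell embryos 4 of the 6 members were called, with 33.3% of 8430 genes called in all, 18.6% higher and 14.8% lower. Without the fold limit 6 of the 6 passed, against 50.8% of all genes. Ftl1 rose by 1.89 (SE 0.31, adjusted p 2.82e-06) and Fth1 by 1.28 (SE 0.17, adjusted p 2.68e-08) on the log2 scale. Tfrc fell by 1.60 (SE 0.25, adjusted p 7.51e-07) and Mtf1 fell by 1.04 (SE 0.21, adjusted p 4.76e-05). Mt1 differed by 0.59 (95% CI 0.28 to 0.91, adjusted p 0.00144) and Mt2 by 0.85 (95% CI 0.50 to 1.19, adjusted p 7.14e-05), again under the 2-fold limit. With the detected gene number in the fit Mt1 differed by 0.49 (adjusted p 0.0838). The call of Mtf1 rests on a value near that limit. It had a difference of -0.81 after median-of-ratios scaling, of -0.53 (adjusted p 0.142) in a fit that also holds the detected gene number, and of -0.97, -0.94 or -0.997 without heat 4-cell embryo 10, 13 or 17. Of these, embryos 13 and 10 had the highest Mtf1 and the fewest and third-fewest detected genes of their group.

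Ferritin light chain and transferrin receptor mRNA moved in opposite directions between the stages in both paternal groups. The ratio of Ftl1 to Tfrc within an embryo had a median of 1025 in heat and 687 in control morulae, against 74.0 in heat and 77.5 in control 4-cell embryos. The ratio of Ftl1 to Fth1 had a median of 10.4 in heat and 9.85 in control morulae, against 6.74 in heat and 6.59 in control 4-cell embryos. Median-of-ratios scaling moved the median log2 fold change of all genes to 0.34 in control embryos, against 0.18 with TPM as deposited, and to 0.24 in heat embryos, against 0.02. The direction of all 6 members was the same under both scalings. With that scaling 69.3% of the calls in heat embryos were higher ones, against 55.7% with TPM as deposited and 21.5% with the detected gene number in the fit.

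**Figure D2:**
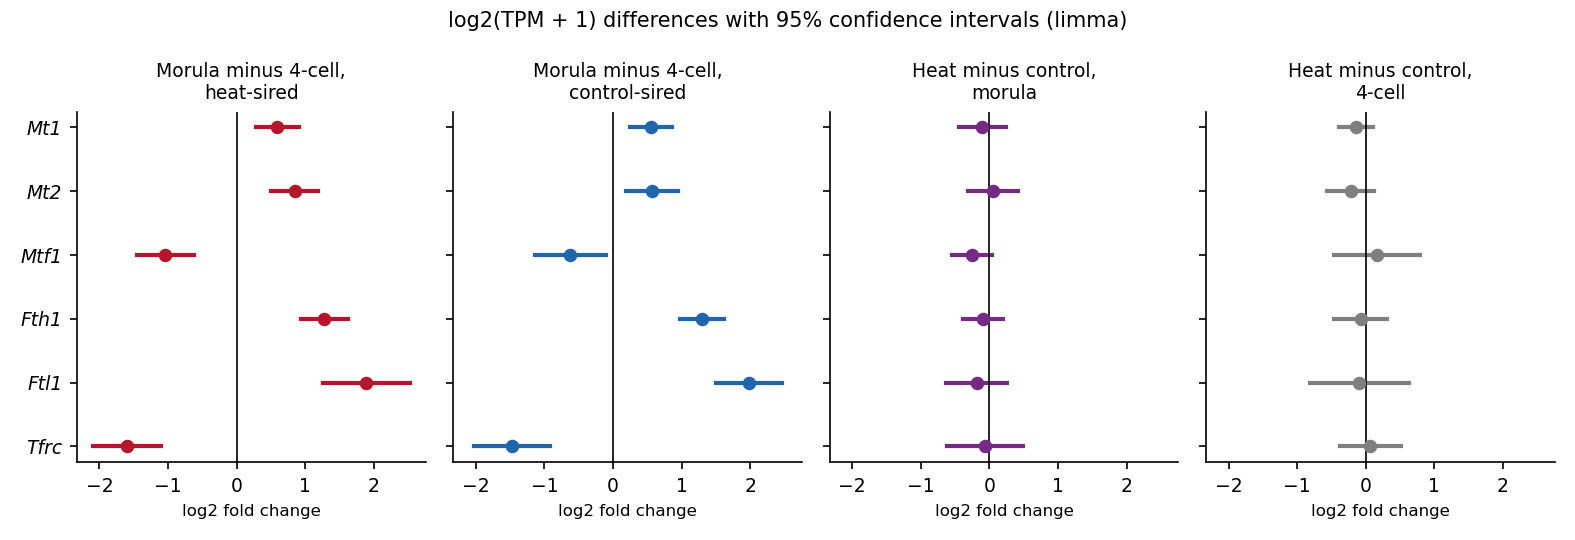
log2 fold changes of the 6 members (horizontal axis, log2(TPM + 1) scale) with 95% confidence intervals from limma, as points and bars, in 4 comparisons. Intervals for Ftl1, Fth1, Mt1 and Mt2 lie above 0 and those for Tfrc and Mtf1 below 0 in both stage panels. All intervals in both heat panels include 0.

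The second question, the one the study's design asks, was whether embryos of heat-exposed fathers differ from those of control fathers. None of the 6 members was called in either heat comparison, where an adjusted p under 0.05 alone made a call. In morulae 0% of 7897 genes were called and 6.05% had an unadjusted p under 0.05. In 4-cell embryos 0% of 7322 genes were called, and 11.5% had an unadjusted p under 0.05. Of the 6 members 0 reached an unadjusted p of 0.05 at either stage. In heat against control morulae the log2 fold changes were -0.10 for Mt1 (95% CI -0.44 to 0.24), 0.05 for Mt2 (95% CI -0.32 to 0.42) and -0.25 for Mtf1 (95% CI -0.55 to 0.04). The unadjusted p of Mtf1, 0.0910, was the smallest of the members. They were -0.09 for Fth1 (95% CI -0.38 to 0.19), -0.18 for Ftl1 (95% CI -0.63 to 0.26) and -0.06 for Tfrc (95% CI -0.62 to 0.49). All 6 intervals include 0 and lie within a 2-fold difference in either direction.

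In heat against control 4-cell embryos Mt1 differed by -0.14 (95% CI -0.39 to 0.10) and Mt2 by -0.22 (95% CI -0.57 to 0.13) on the log2 scale. Mtf1 differed by 0.16 (95% CI -0.47 to 0.79) and Tfrc by 0.06 (95% CI -0.38 to 0.51). Fth1 differed by -0.07 (95% CI -0.46 to 0.31) and Ftl1 by -0.09 (95% CI -0.81 to 0.62). These 6 intervals also include 0 and lie within a 2-fold difference. Their width follows the spread between embryos, which was largest for Ftl1 and smallest for Mt1. Over all genes tested, 74.1% of the log2 fold changes in 4-cell embryos and 67.8% in morulae were above 0, with medians of 0.26 and 0.13. The number of detected genes had medians of 11283 in heat and 10774 in control morulae, and of 8997 in heat and 8260 in control 4-cell embryos. The fit that holds this number as a covariate also called 0 members. After median-of-ratios scaling the medians of all genes were 0.12 in 4-cell embryos and 0.04 in morulae. With that scaling Mt1 differed by -0.33, Mt2 by -0.41, Fth1 by -0.26 and Ftl1 by -0.28 in 4-cell embryos, and Mt1 by -0.24, Mtf1 by -0.37, Fth1 by -0.23, Ftl1 by -0.32 and Tfrc by -0.18 in morulae, none of them called.

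The stage change of the members did not differ detectably between the paternal groups. A test of the stage by heat interaction over all 77 embryos called 0% of 8689 genes, and 5.27% had an unadjusted p under 0.05. Of the members, Mtf1 had the smallest unadjusted p, 0.182, with an interaction of -0.42 (95% CI -1.03 to 0.20) on the log2 scale. That Mtf1 was called in heat embryos and not in control embryos therefore does not show a difference between them.

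Within a group, Mt1 and Mt2 rose and fell together from embryo to embryo. Pearson's r on log2(TPM + 1) was 0.90 in heat morulae and 0.92 in control morulae, and 0.83 in both 4-cell groups. Spearman's rho was 0.85 in heat and 0.93 in control morulae, and 0.82 in heat and 0.80 in control 4-cell embryos. Each r had a permutation p adjusted over all 20 relations tested of at most 0.00048. Without the 2 embryos farthest from the median of Mt1, r was 0.78 in heat and 0.85 in control morulae, and 0.80 in heat and 0.69 in control 4-cell embryos. In each morula group the lowest embryo of both genes was the same, heat morula 1 with 2720 TPM of Mt1 and 2331 TPM of Mt2, and control morula 19 with 4284 TPM of Mt1 and 2225 TPM of Mt2. Control morula 19 also had the lowest Fth1 and Ftl1 of its group and the second-highest Tfrc, and heat morula 1 the lowest Ftl1.

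Fth1 and Ftl1 moved together in morulae, with r of 0.76 in heat morulae (rho 0.76, adjusted permutation p 0.0025) and 0.83 in control morulae (rho 0.85, adjusted permutation p 6.67e-05). Without the 2 embryos farthest from the median of Fth1, r was 0.68 and 0.79 in heat and control morulae. In 4-cell embryos r was 0.08 in heat (adjusted permutation p 0.935) and 0.50 in control embryos (adjusted permutation p 0.101). In control 4-cell embryos r was 0.70 (adjusted permutation p 0.00598) after median-of-ratios scaling and 0.56 (adjusted permutation p 0.0497) with the number of detected genes held fixed. The difference between the stages in this relation was not tested.

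Tfrc ran against Fth1 in morulae. The r was -0.63 in heat morulae (adjusted permutation p 0.00845), where rho was -0.40 (adjusted permutation p 0.147), and r was -0.40 without the 2 embryos farthest from the median of Tfrc. In control morulae r was -0.62 (rho -0.56, adjusted permutation p 0.00469) and -0.57 without 2 embryos. In 4-cell embryos r was -0.20 in heat and 0.02 in control embryos, with adjusted permutation p of 0.586 and 0.970. This relation depended on the scaling. After median-of-ratios scaling r was -0.37 in heat morulae (adjusted permutation p 0.144) and -0.20 in control morulae (adjusted permutation p 0.405). Heat morula 6, with the highest Tfrc (62.0 TPM) of its group, also had the lowest Fth1 (438 TPM), the second-lowest Ftl1 (3002 TPM) and the highest Mtf1 (7.19 TPM).

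Mt1 and Fth1 had an r of 0.54 in control morulae (rho 0.50, adjusted permutation p 0.0186). It was 0.33 without the 2 embryos farthest from the median of Mt1, so its size depends on them. In heat morulae r was 0.37 (adjusted permutation p 0.166), and in 4-cell embryos -0.06 in heat and 0.25 in control. After median-of-ratios scaling it was 0.83 (adjusted permutation p 3.33e-05) in control morulae, 0.64 (adjusted permutation p 0.00372) in heat morulae and 0.62 (adjusted permutation p 0.0185) in control 4-cell embryos. With the number of detected genes held fixed it was 0.46 (adjusted permutation p 0.0617) in control morulae. Mtf1 showed no detectable relation with Mt1 in any group, with r from -0.04 in heat 4-cell embryos to 0.19 in heat morulae. In control morulae that r was 0.01, but 0.58 after median-of-ratios scaling (adjusted permutation p 0.00942) and -0.49 with the number of detected genes held fixed (adjusted permutation p 0.0457), so its sign depends on the processing. In the same 22 control morulae the level of Mt1 had a Spearman rho of -0.71 with the number of detected genes and Mt2 one of -0.68, against -0.04 and -0.20 in the 21 heat morulae. For the other members in control morulae it was -0.50 for Fth1, -0.48 for Ftl1, -0.44 for Mtf1 and 0.33 for Tfrc. In heat morulae these were -0.03, -0.13, -0.07 and -0.01. The genes of an embryo share its library, and the part of the library in these relations was not tested further.

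**Figure D3:**
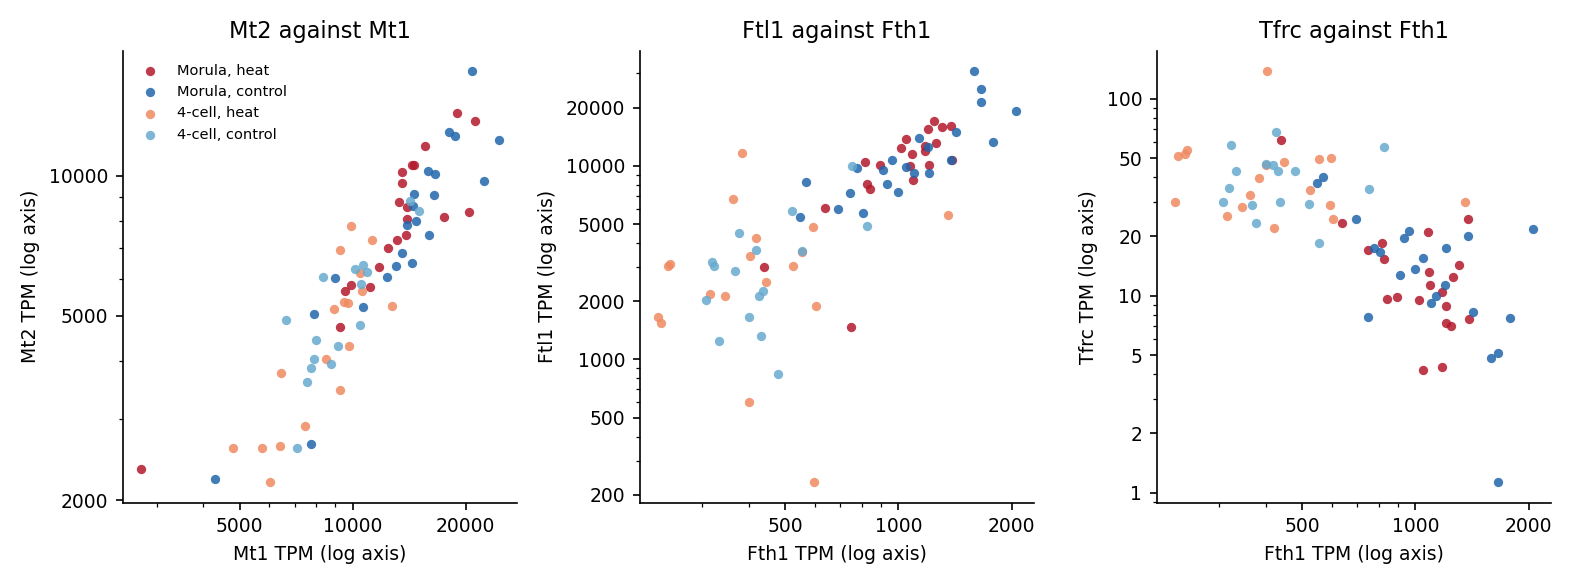
TPM of 3 pairs of members in the same embryo (both axes log), 1 point an embryo, coloured by group as in the legend. Mt2 follows Mt1 in every group, Ftl1 follows Fth1 most clearly in morulae, and Tfrc is lowest in morulae with much Fth1.

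To see which other genes follow each member, its log2 level less the group mean was compared with that of all 8689 genes kept in any group, over the 77 embryos, by Spearman's rho as a description. The genes most like Mt1 were Mt2 (0.87), the ATP synthase subunit gene Atp5j2 (0.53) and Snrpf (0.49), which encodes a spliceosome core protein. Those most like Mt2 were Mt1 (0.87), Atp5j2 (0.66) and Pdap1 (0.62). The gap between the partner and the next gene was thus far wider for both metallothioneins than for any other member. Fth1 was most like Ndufs8 (0.59), a gene of respiratory complex I, then Ftl1 (0.59) and Commd4 (0.58). Ftl1 was most like Rpp21 (0.66), Pnkd (0.65) and 1810043H04Rik (0.64), and Fth1 (0.59) ranked only 22nd for it. Tfrc was most like Bcap29 (0.62) and Larp4 (0.62), and its rho with Ftl1, -0.39, placed Ftl1 8651st of 8689 genes. Among the genes ranked by likeness to Ftl1, the same rho placed Tfrc 6688th. These ranks are from TPM as deposited and were not repeated after median-of-ratios scaling. Mtf1 was most like Abcf1 (0.53), Eif3c (0.51) and Nfatc2ip (0.51).

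Other metallothionein and ferritin genes were also in the table. Mt4, known in mice from stratified epithelia, was above 0 in 19 of 21 heat morulae and 20 of 22 control morulae, with medians of 12.8 and 21.5 TPM. It was above 0 in 3 of 18 heat 4-cell embryos and listed at 0 in all 16 control 4-cell embryos. No fold is given against a group at 0, and no test, since Mt4 passed the filter on low values through the morulae alone. Mt3, the brain metallothionein, was above 0 in 4 heat morulae and 1 control morula and in none of the 4-cell embryos. Ftmt, the mitochondrial ferritin gene, was listed at 0 in all 77 embryos.

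The Fthl17 genes are near-identical copies of a ferritin heavy chain-like gene on the X chromosome, so the split of reads between them is uncertain. Summed over 6 rows (Fthl17, Gm5634, Gm14511, Gm14458, Gm5635 and 1600014K23Rik), they were above 0 in all 21 heat and all 22 control morulae, with medians of 145 and 95.3 TPM. Only 1600014K23Rik, which lies apart from the others at chrX:85249677-85270291, was by itself above 0 in all 22 control morulae. Each other row was above 0 in 9 to 17 of these. In heat morulae that row was above 0 in 18 of 21 and the others in 12 to 17. They were above 0 in 12 of 18 heat 4-cell embryos, with a median of 20.0 TPM, and in 11 of 16 control 4-cell embryos, with a median of 1.43 TPM. The 5 of these rows that entered the test in control embryos passed the filter through the morulae alone, where they are high, so no count of calls between stages is given. A further ferritin-like row, Gm14499, is not in the sum. It was above 0 in 14 of 21 heat morulae and 15 of 22 control morulae, with medians of 48.4 and 25.1 TPM, and in 10 of 18 heat and 6 of 16 control 4-cell embryos, with medians of 1.44 and 0 TPM. With it the medians of the sum were 216 and 140 TPM in heat and control morulae, against 33.6 and 1.43 TPM in heat and control 4-cell embryos. Between heat and control morulae all 6 copies were tested, and none was called. Between heat and control 4-cell embryos only 2 of them reached the filter, Gm5634 and Gm5635, and neither was called. The others were not tested at that stage.

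Around the members, wider lists of metal genes were compared between control morulae and control 4-cell embryos, with the background of 20.6% called higher and 11.4% called lower among all genes and a median log2 fold change of 0.18. That split turned to mostly lower calls with the detected gene number in the fit, as given above, and the lists were not counted there. Some genes entered the test through the morulae alone, which holds for 19.4% of all genes tested, 3 of 16 zinc transporters, 2 of 9 iron genes, 1 of 9 copper genes, 6 of 15 heme genes, 5 of 10 NRF2 genes and 1 of 25 iron-sulfur genes. Of those named here they are Slc30a1, Steap1, Steap3, Hmox1, Txnrd1 and Fdxr. Their route into the test favours higher calls, so levels are given for them without a p-value. The list counts and medians still hold such genes. Of 16 zinc transporters tested 3 were called higher and 1 lower, with a median of 0.14. Slc30a1, the zinc exporter of the cell surface and itself an MTF1 target, had a median of 2.24 TPM in control morulae. It was above 0 in 5 of 16 control 4-cell embryos. Slc30a2, a vesicular zinc transporter, rose by 2.67 (adjusted p 1.11e-05), Slc39a7, a zinc transporter of the endoplasmic reticulum, rose by 1.30 (adjusted p 0.0233) and the zinc importer Slc39a1 fell by 1.09 (adjusted p 0.00249).

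Of 9 genes of iron uptake, export and sensing 2 were called higher and 1 lower, with a median log2 fold change of 0.04. These shares were near those of all genes, 20.6% and 11.4%. The 2 higher ones entered the test through the morulae alone. Steap3, a ferrireductase of the transferrin cycle, had medians of 3.20 TPM in control morulae and 0.21 TPM in control 4-cell embryos. Its relative Steap1 had medians of 3.33 and 0 TPM. Slc25a28, a mitochondrial iron importer, fell by 1.93 (adjusted p 2.60e-05). Of 9 copper genes 1 was called, Commd1 (1.30, adjusted p 9.93e-07), with a list median of 0.33. Superoxide dismutase Sod1 differed by 0.85 (adjusted p 0.000185) and its copper chaperone Ccs by 0.54 (adjusted p 0.0134), both under the 2-fold limit.

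Of 15 heme genes tested 9 were called higher and 3 lower, with a median log2 fold change of 1.34. The 6 that entered through the morulae alone were all among those called higher, so the filter favoured that count and median. Hmox1, the inducible heme oxygenase that frees iron from heme, had a median of 24.6 TPM in control morulae. It was above 0 in all 22 of them, against 3 of 16 control 4-cell embryos. Its constitutive relative Hmox2 fell by 1.77 (adjusted p 3.04e-08), with medians of 67.2 TPM in control morulae and 214 TPM in control 4-cell embryos. The heme-binding protein gene Pgrmc1 rose by 2.06 (adjusted p 2.49e-05). Genes of heme synthesis went both ways: the first enzyme, Alas1, rose by 1.34 (adjusted p 0.00694), while Urod, of a later step, fell by 1.10 (adjusted p 0.000472). Of 10 genes of the oxidative stress factor NRF2 and its targets, a list that also holds Hmox1, 8 were called higher and 0 lower, with a median of 1.61. Of these 10 genes 5 entered through the morulae alone. Thioredoxin Txn1 rose by 2.70 (adjusted p 1.34e-12). Its reductase Txnrd1 had medians of 6.85 TPM in control morulae and 0.78 TPM in control 4-cell embryos. Nfe2l2, which encodes NRF2 itself, rose by 2.28 (adjusted p 9.78e-06). Of 25 iron-sulfur cluster genes 5 were called higher and 0 lower, with a median of 0.43. Among all genes 20.6% were called higher, so the share of higher calls in this list was near the background. Bola3, an assembly factor for lipoate enzymes, rose by 1.68 (adjusted p 7.19e-07). Ferredoxin reductase Fdxr had medians of 4.435 TPM in control morulae and 0 TPM in control 4-cell embryos. Its ferredoxin Fdx1 rose by 1.14 (adjusted p 0.000742), Isca1 by 1.18 (adjusted p 0.00578) and Cisd2 by 1.00 (adjusted p 0.00131), and Cisd1 differed by 0.77 (adjusted p 0.000202).

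In heat morulae against heat 4-cell embryos the same lists were counted, against the background of 18.6% of all genes called higher and 14.8% called lower. There 15.6% of all genes tested entered through the morulae alone. So did 5 of 15 heme, 4 of 10 iron and 3 of 10 NRF2 genes. The same holds for 1 of 25 iron-sulfur, 1 of 17 zinc and 1 of 10 copper genes. Of those named here they are Hmox1, Steap1, Steap3 and Slc30a1. Their route into the test favours higher calls, so no fold change or p-value is given for them. Of 15 heme genes 10 were called higher, among them the 5 that entered through the morulae alone. Hmox1 is 1 of those 5. The 1 called lower was again Hmox2 (-1.18, adjusted p 0.000122). Of 10 NRF2 genes 8 were called higher and 0 lower, and of 25 iron-sulfur genes 6 were called higher and 0 lower. Of 10 iron genes 2 were called higher, Steap1 and Steap3, both of which entered through the morulae alone. The 1 iron gene called lower, Slc25a28, fell by 1.14 (adjusted p 0.0126). Commd1 rose by 1.64 (adjusted p 6.43e-09). Of 17 zinc transporters 3 were called higher, Slc30a2 (2.78, adjusted p 1.84e-06), Slc39a7 (1.08, adjusted p 0.0192) and Slc30a1, which entered through the morulae alone. Slc30a5 was called lower (-1.02, adjusted p 0.00823). Slc39a7, Slc30a5, Alas1, Urod, Nfe2l2, Fdx1, Isca1 and Cisd2 were named after their values were seen.

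**Figure D4:**
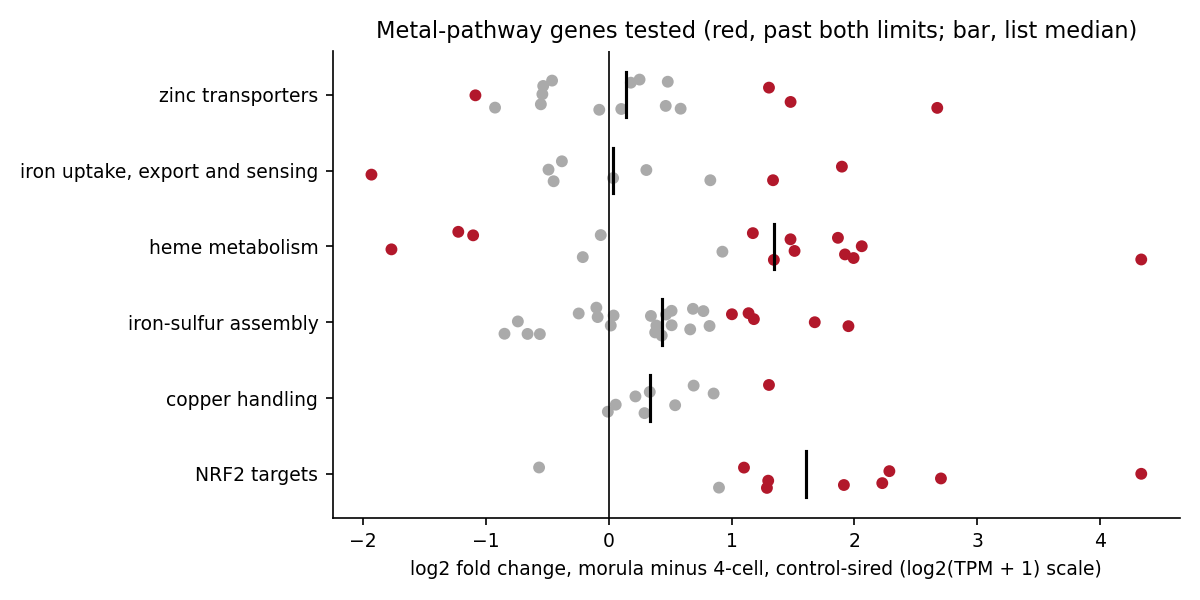
log2 fold change, control morulae minus control 4-cell embryos (horizontal axis, log2(TPM + 1) scale), of each tested gene of 6 lists, 1 point a gene; red points passed an adjusted p under 0.05 and a 2-fold difference, and the bar is the list median. Medians of heme metabolism (1.34) and NRF2 targets (1.61) lie to the right of those of the other lists. Of their tested genes, 6 of 15 and 5 of 10 entered the test through the morulae alone, which favours values to the right.

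Between heat and control embryos no gene of any of these lists was called, as in the table as a whole. Slc39a13, a zinc transporter of the secretory pathway, was above 0 in 5 of 18 heat 4-cell embryos and 12 of 16 control 4-cell embryos. Its medians were 0 TPM in heat and 2.155 TPM in control 4-cell embryos. It reached the filter on low values through the control embryos alone, so no fold change or p-value is given for it. The ferredoxin gene Fdx1l had medians of 75.8 TPM in heat and 155 TPM in control 4-cell embryos (log2 fold change -1.04, unadjusted p 0.000277, adjusted p 0.379). Mms19, of cytosolic iron-sulfur delivery, differed by 0.99 in 4-cell embryos (adjusted p 0.379) and by -0.53 in morulae (adjusted p 0.771). The copper chaperone Cox17 differed by -0.47 in 4-cell embryos (adjusted p 0.387) and by -0.36 in morulae (adjusted p 0.784). Pcbp1, an iron chaperone that loads ferritin, differed by 0.46 in 4-cell embryos (adjusted p 0.404) and by 0.48 in morulae (adjusted p 0.771).

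Cells other than blastomeres were looked for with fixed markers. Of 9 cumulus and granulosa markers, Ptgs2, Has2, Foxl2 and Inhba were listed at 0 in all 77 embryos, while Amhr2 was above 0 in all of them, with medians of 13.4 and 12.5 TPM in heat and control morulae and 61.4 and 36.6 TPM in heat and control 4-cell embryos. The 6 sperm markers summed to at most 29.1 TPM in any embryo, with a median of 0 TPM in each group.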

How the data were processed

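Polyadenylated RNA of single embryos was sequenced from Nextera XT libraries, per the labels' protocols. The authors deposited TPM per gene, and each of the 77 columns sums to 1000000 within 0.92. Trimmomatic, Bowtie2, RSEM and mm10 are named, per the submitters' processing notes, with no versions or roles. The handling of reads shared between copies is not stated. From the TPM, log2(TPM + 1) was tested with limma 3.58.1 (R 4.3.3) with a mean-variance trend, on genes that reached 1 TPM in 50% or more of the embryos in a compared group. P-values are two-sided and adjusted by Benjamini-Hochberg over all genes tested. The test was checked on simulated data. Correlations used Python 3.11.15 with 100000 resamples, two-sided. No 2 embryo columns were identical. Embryos that carry the same number in heat and control groups, or at both stages, mostly did not deviate together (median r of -0.06 to 0.06), so numbers were not used as pairs. The highest r of such a pair was 0.74, between heat and control morulae. There 6 of 21 pairs had an r over 0.1, and 2 matched best with their own number. Named genes are the 6 members, the relatives in the fixed lists and Gm14499, added later, the 3 most alike by rho, and from each list up to 3 with the smallest p between stages in control embryos and up to 2 in each heat comparison. Some genes that this rule takes are not reported here. Members and lists were chosen with earlier results of these data known. Gene names were matched to RefSeq for 22552 of 23845 symbols, including all 6 members. The sperm small RNA counts were not used.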

Additional observations from a re-analysis of the deposited data

How the results depend on the processing

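Under the alternatives tried, the number of members called stayed at 0 in both heat comparisons and in the interaction. It was 3 to 4 between control stages and 3 to 4 between heat stages, apart from the fit with no fold limit, which called 6 in each. Leaving out 1 embryo at a time gave 0 calls in the heat comparisons and the interaction, 3 between control stages and 3 to 4 between heat stages. The fit with the replicate block, over numbers found in both groups, called 0 members in each heat comparison, 3 between control stages and 4 between heat stages, and changed no call. With all 4 groups in one fit, 26 genes of the whole table were called between heat and control 4-cell embryos and 2 between morulae, none of them a member. Between heat stages Mtf1 also lost its call with a pseudocount of 5 (-0.61) and array weights (-0.97), and Mt2 was called there with scaling (1.13) and between control stages with detected genes as a covariate (1.03). Counts of all stage calls ranged from 1266 with a pseudocount of 5 to 3753 with no fold limit in control embryos, against 2607, and from 1334 to 4284 in heat embryos, against 2811. Leaving out the 7 embryos with stage markers in the other stage's range was added after the data were examined.

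Members whose small, uncalled log2 difference changed sign were as follows, and the cause was not tested. Between heat and control 4-cell embryos, Ftl1 had 0.13 with array weights, 0.12 with detected genes as a covariate and 0.0767 with the replicate block, Tfrc had -0.12 with median-of-ratios scaling, and Fth1 had 0.0831 without the 7 embryos. Between heat and control morulae, Mt2 had -0.0231 with array weights, -0.0803 with that scaling and -0.0172 with the replicate block, and Mt1 had 0.0256 with the covariate. In the interaction, Fth1 had 0.10 with array weights, 0.0347 with scaling and 0.0190 without the 2 embryos of each group with the fewest detected genes, and Mt1 had -0.0781 without the 7 embryos. Without 1 embryo at a time the values ranged from -0.22 to 0.11 for Ftl1 and -0.0405 to 0.12 for Tfrc between 4-cell embryos. They ranged from -0.18 to 0.0105 for Mt1, -0.0292 to 0.14 for Mt2 and -0.19 to 0.0127 for Tfrc between morulae. In the interaction they ranged from -0.0377 to 0.15 for Mt1, -0.0814 to 0.0805 for Fth1 and -0.29 to 0.0446 for Ftl1. The positive end for Mt1 in morulae came without heat morula 1, and that for Tfrc without control morula 20.

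Of the 20 relations between members 9 passed, and 9 to 11 did under the alternatives. Signs of r changed as follows. In heat 4-cell embryos r of Mt1 and Fth1 was 0.10 with scaling, and r of Mtf1 and Mt1 was 0.41 with scaling and 0.0710 with detected genes held fixed. In control morulae r of Mtf1 and Mt1 was -0.49 with detected genes held fixed. Mtf1 has no value between heat and control morulae with a filter of 5 TPM. Depth limits all low values, since TPM gives no counts and Mtf1 lies at a few TPM.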

Other observations

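The alpha-globin gene Hba-a2 was above 0 in 20 of 21 heat morulae and 21 of 22 control morulae, with medians of 23.6 and 35.3 TPM, and in all 18 heat and all 16 control 4-cell embryos, with medians of 140 and 124 TPM. The beta-globin gene Hbb-bs was above 0 in 1 heat morula, 1 control morula, 5 heat 4-cell embryos and 5 control 4-cell embryos, with at most 256 TPM. Alas2, the red cell form of the first enzyme of heme synthesis, reached at most 7.35 TPM.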
